A study of Mus musculus with 6 samples.

Results

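The 10 genes described here (Nes, Vim, Prom1, Msi1, Msi2, Nr2e1, Rfx4, Fut4, Cd24a and Lhx2) are used as markers or regulators of neural stem and progenitor cells. They were chosen by name from 24063 gene symbols, and all 10 are listed in the files. RNA-seq was done on mouse stem-like medulloblastoma cells, which the labels give as cerebellar tissue of genotype Math1-Cre; SmoM2, shared by every group. In that genotype a Cre driven by Math1 (Atoh1), a gene of granule neuron progenitors, switches on an active form of Smoothened, which carries the Hedgehog signal into the cell. The 3 groups differed in their CRISPR guide: sgGal4-4, named for the yeast protein Gal4 and labelled wild type, and sgMiat-6 and sgMiat-96, both named for the long noncoding RNA Miat and labelled Miat knockdown. Each group had 2 libraries. Neither the age of the animals nor the time after the guides were introduced is used here, and the labels do not say whether the libraries of a group came from separate cultures, so p-values measure only the spread between these samples, which may be technical.

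Neural stem cells are recognised by several kinds of gene. Nestin and vimentin are intermediate filament proteins of the progenitor cytoskeleton, while prominin-1 (CD133), the Lewis x carbohydrate made by fucosyltransferases (CD15) and Cd24a lie on the cell surface and are used to sort stem-like tumour cells. Musashi proteins bind messenger RNA and control its translation, and Nr2e1 (Tlx), Rfx4 and Lhx2 are transcription factors of the developing brain. In bulk RNA, fewer cells of a type and less RNA per cell cannot be told apart.

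Libraries held between 18438891 and 19650274 counts with 1 transcript row kept per symbol. Miat had 279 counts over both control libraries and 0 over the 4 Miat libraries. Levels are given as CPM, read counts relative to the library size scaled by TMM, which sets the libraries to a common scale from the bulk of their genes. On that scale 3 counts equal 0.149 to 0.173 CPM, depending on the library. Of the other cell type markers checked, Atoh1, the defining gene of granule neuron progenitors, was at 0 counts in every library and Barhl1 averaged 0.102 CPM or less, although Zic1 and Zic2 were present. The first genes of the microglial (Ptprc, Csf1r), endothelial (Pecam1) and neuronal (Snap25, Syt1) lists, and Pdgfrb of the pericyte list, each averaged below 1 CPM in every group. Other genes of these lists were above 1 CPM in the control, namely Cdh5 (1.15 ± 0.456 CPM) and Tek (4.65 ± 0.0898) of the endothelial list, Col1a1 (8.67 ± 1.51) and Map2 (745 ± 0.734). Sox2, a core stem cell transcription factor, was at 218 ± 6.54 CPM (SD, n = 2 here and below) under sgGal4-4, 229 ± 17.4 under sgMiat-6 and 270.4 ± 22.6 under sgMiat-96. Of the markers of the labelled stem-like state, Vim, Nes and Sox2 were each above 200 CPM in every group. Others were lower, with group means of at most 59.1 CPM for Lhx2, 35.5 for Msi1 and 0.654 for Nr2e1. Rfx4 averaged 55.0 CPM in the control and at most 0.0866 with either Miat guide. Prom1, the gene of the sorting marker CD133, and Fut4, an enzyme gene for the CD15 carbohydrate, were not detectable at this depth. Fut9, whose enzyme makes the same carbohydrate, was at 68.0 ± 8.89 CPM in the control.

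With the 2 Miat guides averaged against sgGal4-4, Rfx4 fell to near 0, Msi2 and Msi1 fell, and Vim, Cd24a and Lhx2 rose. Rfx4 went from 55.0 ± 2.38 CPM to below 0.1 CPM on average with either guide, the largest change of the set. Vim, the most abundant member, rose from 1496 ± 35.4 CPM to 2837 ± 174 CPM under sgMiat-6 and to 3230.4 ± 109 CPM under sgMiat-96. Nes, the gene after which nestin-positive cells are named, was not called in this comparison. Of the 8 members that passed the filter on low counts, 7 were called (adjusted p under 0.05, quasi-likelihood test of edgeR), of which 4 were higher and 3 lower, where 66.5% of all 13220 tested genes were called (33.1% higher and 33.4% lower). Most genes were called in this comparison, so the count says little about the markers as a set. The median log2 fold change was 0.37 over the 8 tested members and 0.00 over all genes, and Rfx4 and Nr2e1 passed the filter only through the group in which each is high.

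The promoters of the members with the largest fall and the largest rise among the well expressed members are shown first, since the results turn on these 2 genes. Each is the 250 bases before a RefSeq transcription start on GRCm38.p6, 5′ to 3′ on the gene's strand, with capitals for matches on either strand to 4 short promoter motifs. The TATA box was searched as TATAAA, the box bound by NF-Y as CCAAT, the box bound by Sp1 as GGGCGG and the E-box as CACGTG; none of the 4 contains another. Rfx4 has 2 starts, chr10:84755798-84756047 lying before the first and chr10:84837898-84838147 before an internal one, and the Vim sequence is chr2:13574061-13574310, all on the plus strand.
Rfx4, first start: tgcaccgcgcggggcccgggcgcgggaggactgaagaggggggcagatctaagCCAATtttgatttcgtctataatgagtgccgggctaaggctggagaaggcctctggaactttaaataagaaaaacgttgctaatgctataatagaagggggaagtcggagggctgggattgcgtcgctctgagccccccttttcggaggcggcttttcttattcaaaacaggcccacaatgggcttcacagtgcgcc
Rfx4, internal start: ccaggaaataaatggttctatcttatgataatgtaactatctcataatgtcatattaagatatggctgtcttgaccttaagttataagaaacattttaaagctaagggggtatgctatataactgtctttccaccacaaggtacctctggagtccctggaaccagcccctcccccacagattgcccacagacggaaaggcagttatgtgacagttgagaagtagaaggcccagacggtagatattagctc
Vim: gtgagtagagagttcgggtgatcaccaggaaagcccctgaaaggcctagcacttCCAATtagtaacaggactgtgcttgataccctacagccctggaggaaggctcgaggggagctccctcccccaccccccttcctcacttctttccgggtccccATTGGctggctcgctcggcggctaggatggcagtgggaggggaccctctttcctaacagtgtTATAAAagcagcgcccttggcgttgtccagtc
The first Rfx4 promoter held 1 CCAAT match, a motif found in 33.8% of the 32851 promoters searched over the same length, and the internal one held none of the 4 motifs. The Vim promoter held 1 TATA match, found in 12.4% of promoters, and 2 CCAAT matches. GC content was 54.8% and 42.0% for the Rfx4 promoters and 58.4% for Vim, against a median of 52.4%. These matches describe the letters only.

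Rfx4 encodes a winged-helix transcription factor needed in the developing brain and in the formation of cilia. It lies on chromosome 10 from 84756036 to 84906538 (GRCm38). Its main transcript row was counted 1101 and 1053 times under sgGal4-4, 0 and 2 times with sgMiat-6, and 0 and 3 with sgMiat-96. Both control libraries were high and all 4 Miat libraries were at or near 0, with no overlap. Since only 5 counts remained over the 4 Miat libraries, the change is given as a ratio of counts per scaled library size, 824-fold lower with a 95% Clopper-Pearson interval of 352.5-fold to 2540-fold. It was 1094-fold lower with sgMiat-6 (302-fold to 9038-fold, 2 counts) and 644-fold lower with sgMiat-96 (220-fold to 3125-fold, 3 counts). These intervals cover counting error only. The adjusted p was 2.85e-11 with both guides, 5.54e-10 with sgMiat-6 and 6.73e-10 with sgMiat-96. Between the Miat guides Rfx4 was not called (adjusted p = 0.702).

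The internal start of Rfx4 lies 82086 bp downstream of the first in the GENCODE M21 annotation. The row that begins there (NM_027689) had 947 and 921 counts in the controls, 86.0% and 87.5% of the main row (NM_001024918). In the Miat libraries both rows held the same 0, 2, 0 and 3 counts. The rows share the reads of their common exons, so they are not separate measurements.

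**Figure D1:**
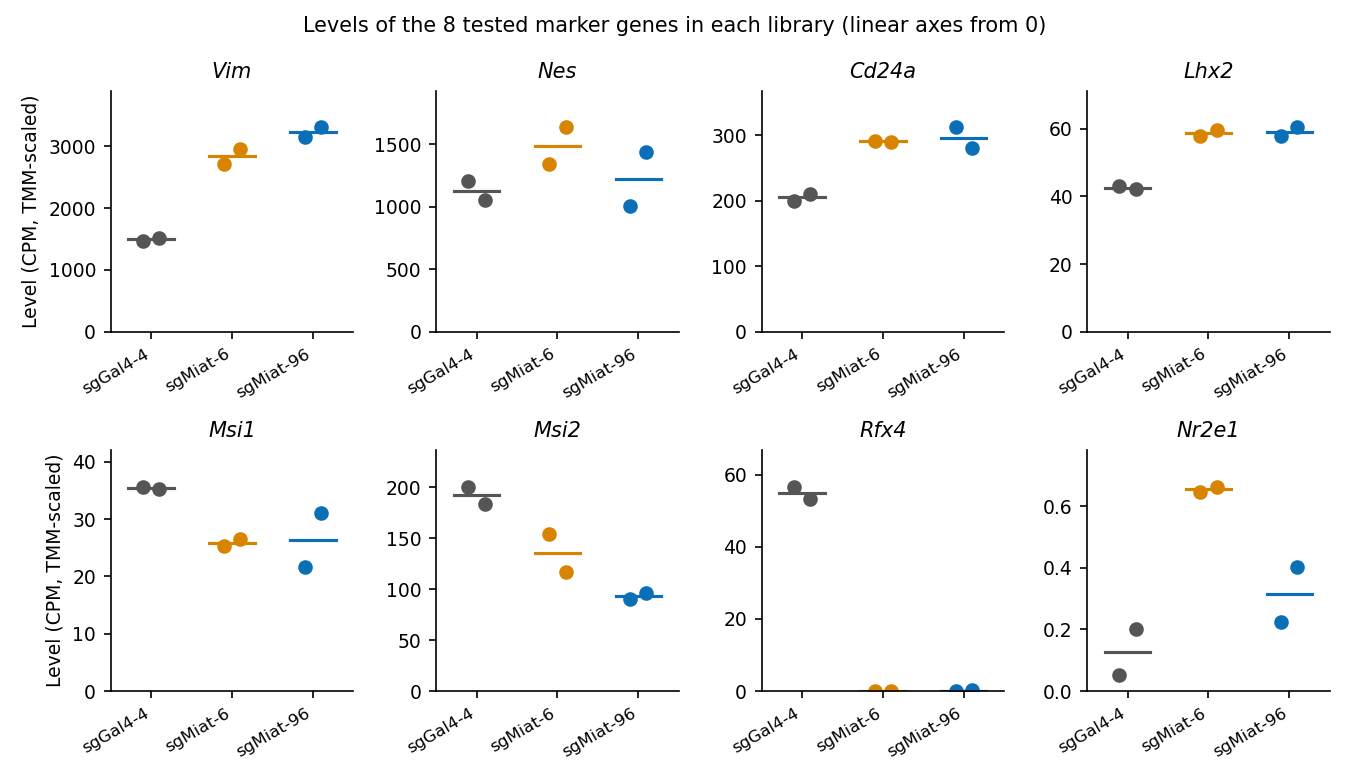
Levels of the 8 tested markers in each library, in CPM on linear axes from 0, by guide; points are libraries and lines are group means. Rfx4 sits near 0 in all 4 Miat libraries, Vim, Cd24a and Lhx2 lie above both controls in every Miat library, Msi1 and Msi2 lie below them, and the Nes groups overlap.

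Among the filament genes, Vim encodes vimentin, the general intermediate filament of progenitor and mesenchymal cells (chromosome 2, 13574311 to 13582826). Its level was 1471 and 1521 CPM in the control libraries, 2714 and 2959.7 with sgMiat-6, and 3153 and 3308 with sgMiat-96. All 4 Miat libraries were above both controls. The log2 fold change was 0.92 ± 0.10 (SE) with sgMiat-6 (adjusted p = 8.34e-06) and 1.11 ± 0.10 with sgMiat-96 (adjusted p = 9.73e-07). The sgMiat-96 libraries were also above the sgMiat-6 libraries, but the difference of 0.19 ± 0.10 on the log2 scale was not called (adjusted p = 0.164).

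Nes encodes nestin, the filament protein by which neural stem cells are most often identified (chromosome 3, 87971093 to 87980451). It was at 1202 and 1049.6 CPM in the control libraries, 1338 and 1635 with sgMiat-6, and 1007 and 1439 with sgMiat-96. The sgMiat-6 libraries were above both controls, whereas sgMiat-96 had its replicate 1 below and its replicate 2 above them. Nes rose with sgMiat-6 by 0.40 ± 0.16 (SE) on the log2 scale (adjusted p = 0.0448). Leaving out sgMiat-6 replicate 2 ended that call (0.24, adjusted p = 0.282), as did leaving out sgGal4-4 replicate 2 (0.31, adjusted p = 0.18), taking the replicate number as a block (0.38, adjusted p = 0.0521) or scaling by library totals alone (0.35, adjusted p = 0.0867). With sgMiat-96 the log2 difference was 0.12 ± 0.16 (adjusted p = 0.51), and with both guides 0.26 ± 0.14 (adjusted p = 0.108). Without sgMiat-96 replicate 1 the value for both guides was 0.38 and was called (adjusted p = 0.0167).

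The other intermediate filament genes listed moved in both directions with both guides, 3 up and 3 down of 10 tested. Over all genes 33.1% were higher and 33.4% lower. Of those called, Gfap and Prph, which fell, passed the filter on low counts only through the control, and Nefm, which rose, only through sgMiat-6. Among those at 5 CPM or more, the lamin genes Lmnb2 and Lmna, which line the nucleus, rose by 0.32 ± 0.11 and 0.25 ± 0.10 (SE) on the log2 scale. Gfap, the filament of mature astrocytes and of some stem cells, was at 0.742 ± 0.189 CPM in the control, 0.0758 ± 0.0371 under sgMiat-6 and 0 under sgMiat-96.

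Of the genes tied to surface markers, Cd24a was abundant, while Prom1 and Fut4, which encodes an enzyme and not the marker itself, had hardly a read. Cd24a encodes a small glycosylated surface protein of neuroblasts and progenitors (chromosome 10, 43579169 to 43584265). Its level was 199.8 and 210.2 CPM in the controls, 292 and 289.9 with sgMiat-6, and 312 and 280.1 with sgMiat-96. Every Miat library was above both controls. Cd24a rose by 0.50 ± 0.10 (SE) with sgMiat-6 (adjusted p = 0.00103) and by 0.53 ± 0.10 with sgMiat-96 (adjusted p = 0.000443). The guides differed by 0.03 ± 0.10 on the log2 scale (adjusted p = 0.865).

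Prom1 encodes prominin-1, a protein of membrane protrusions whose CD133 epitope is used to enrich brain tumour stem cells (chromosome 5, 43993621 to 44102047). Each of its 8 transcript rows had 1 count in sgMiat-6 replicate 2 and 0 in the other 5 libraries. Fut4, a fucosyltransferase that makes the Lewis x epitope (chromosome 9, 14748459 to 14752122), had 0 counts in all 6. Over the 6 libraries together a count of 0 allows a level of up to 0.0263 CPM. Both genes are listed at 1 count in sgMiat-96 replicate 2, where their FPKM is 0, and were set to 0 there.

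Fut9, the other brain enzyme that makes Lewis x, was present and fell, with 68.0 ± 8.89 CPM under sgGal4-4, 48.3 ± 12.2 under sgMiat-6 and 25.2 ± 2.60 under sgMiat-96 (adjusted p = 4.69e-05 for both guides). Of 6 tested fucosyltransferase relatives, 2 rose and 2 fell with both guides, where 33.1% of all genes were higher and 33.4% lower. Fut10 fell by 0.78 ± 0.15 (SE) on the log2 scale and Pofut2, which adds fucose to thrombospondin repeats, rose by 0.28 ± 0.09. Of 7 genes related to prominin or its location, 2 rose and 3 fell. Among the falls, Cdhr1 passed the filter on low counts only through the control. Ttyh3 fell by 0.71 ± 0.09 (SE), the ciliary small GTPase gene Arl13b fell by 0.62 ± 0.14, and Ttyh2 rose by 0.46 ± 0.10.

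The 2 Musashi genes both fell. Msi1 encodes the RNA-binding protein first used to mark neural stem cells (chromosome 5, 115359059 to 115455698). It was at 35.7 and 35.3 CPM in the controls, 25.2 and 26.5 with sgMiat-6, and 21.7 and 31.1 with sgMiat-96. All Miat libraries were below both controls, and the sgMiat-96 libraries lay on either side of those with sgMiat-6. With both guides Msi1 fell by 0.44 ± 0.13 (SE) on the log2 scale (adjusted p = 0.0108). The call was lost when the 4 Miat libraries were fitted as 1 group (adjusted p = 0.0547). With sgMiat-6 alone the difference was -0.46 ± 0.16 (adjusted p = 0.0271) and with sgMiat-96 alone -0.43 ± 0.16 (adjusted p = 0.0285). The sgMiat-6 call was lost when any 1 of the 4 libraries compared was left out, with an adjusted p of 0.0788 and 0.0666 without sgGal4-4 replicates 1 and 2, and of 0.0848 and 0.0503 without sgMiat-6 replicates 1 and 2. The sgMiat-96 call was lost without sgGal4-4 replicate 1 or 2 (adjusted p = 0.0776 and 0.0652) and without sgMiat-96 replicate 1, where the value was -0.19 (adjusted p = 0.275).

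Msi2, the paralog of Msi1, is expressed more widely in progenitors (chromosome 11, 88339382 to 88718306). Its level was 200.4 and 183 CPM in the controls, 154 and 117 with sgMiat-6, and 90.3 and 96.2 with sgMiat-96. The 3 groups did not overlap, with the control highest and sgMiat-96 lowest. Msi2 fell by 0.50 ± 0.13 (SE) with sgMiat-6 (adjusted p = 0.00531) and fell by 1.04 ± 0.13 with sgMiat-96 (adjusted p = 1.37e-05). It was the only one of the 8 tested members called between the Miat guides in this fit, -0.54 ± 0.13 for sgMiat-96 against sgMiat-6 (adjusted p = 0.00777), a comparison in which 36.7% of all genes were called (17.8% higher and 18.8% lower). It was not called after leaving out sgMiat-6 replicate 1 (-0.33, adjusted p = 0.0695) or sgMiat-96 replicate 1 (-0.49, adjusted p = 0.0883). Over all genes the number called between the guides went from 4850 to 2253 and 1124 without those libraries.

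The short Msi2 row (NM_001201341, 780 bp) covers the 5′ part of the gene and ends at 88685954, while the main row (NM_054043, 6490 bp) runs on to 88343889. The short row had 289 and 302 counts in the controls, 215 and 93 with sgMiat-6, and 61 and 73 with sgMiat-96. As a share of the main row's counts that was 7.43% and 8.36% in the controls, 6.93% and 4.07% with sgMiat-6, and 3.80% and 4.38% with sgMiat-96. All Miat libraries had a lower share than both controls, and the difference in share was not tested. The 2 rows can share the reads of common exons, so they are not separate measurements. When every transcript row was fitted, a setting added after the data were seen, the short row fell by 0.95 ± 0.28 (SE) with sgMiat-6 (adjusted p = 0.0113) and fell by 1.94 ± 0.30 with sgMiat-96 (adjusted p = 8.63e-05).

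Of 10 listed Musashi targets and RNA-binding relatives, 3 rose and 5 fell with both guides, where 33.1% of all genes were higher and 33.4% lower. Numbl, related to the Musashi target Numb, rose by 0.64 ± 0.10 (SE) on the log2 scale. Elavl2, a neuronal RNA-binding protein gene, fell by 1.57 ± 0.15.

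**Figure D2:**
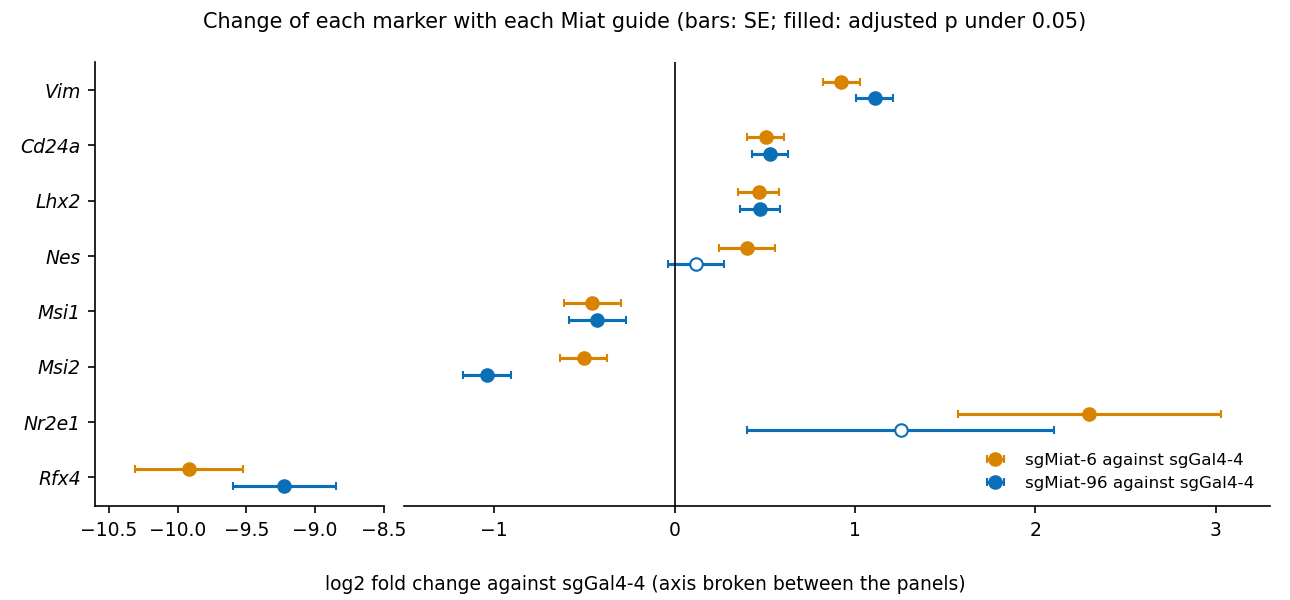
Log2 fold change of each tested marker against sgGal4-4 for each Miat guide, with SE bars and filled points for an adjusted p under 0.05; the axis is broken to include Rfx4. Both guides moved each called gene in the same direction, and open points mark Nes and Nr2e1 with sgMiat-96.

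**Figure D3:**
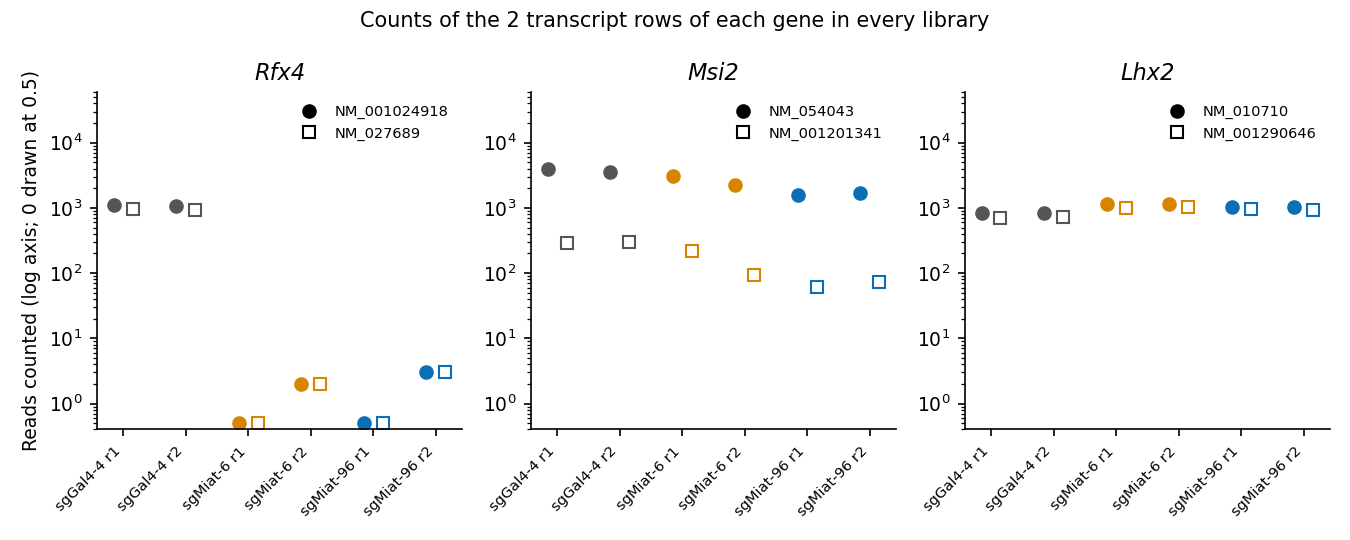
Counts of the 2 transcript rows of Rfx4, Msi2 and Lhx2 in every library on a log axis, with 0 drawn at 0.5. The Rfx4 rows drop together to at most 3 counts, the short Msi2 row falls from 289 and 302 counts to 61 and 73 with sgMiat-96, and the Lhx2 rows run in parallel. Rows of 1 gene can share reads, so they are not separate measurements.

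Lhx2 encodes a LIM-homeobox transcription factor that patterns the forebrain and the eye (chromosome 2, 38339271 to 38369737). It was at 43.0 and 42.1 CPM in the controls, 57.9 and 59.7 with sgMiat-6, and 57.7 and 60.4 with sgMiat-96. The 4 Miat libraries formed a tight set above both controls. Lhx2 rose by 0.47 ± 0.11 (SE) with sgMiat-6 (adjusted p = 0.00342) and by 0.47 ± 0.11 with sgMiat-96 (adjusted p = 0.00209). The call with sgMiat-6 was lost without sgGal4-4 replicate 2 (0.45, adjusted p = 0.0585). Scaled by library totals alone, the rise with sgMiat-96 was 0.27 (adjusted p = 0.0515). The second Lhx2 row (NM_001290646), which starts 11478 bp upstream of the main row, moved by 0.50 ± 0.11 and 0.59 ± 0.11 in the fit of every row. The 2 rows share the reads of their common exons, so they are not separate measurements. Of 5 tested LIM-homeobox relatives and partners, 2 rose and 2 fell with both guides, where 33.1% of all genes were higher and 33.4% lower. Among them Lmx1b, which fell, passed the filter on low counts only through the control, and Lhx6, which rose, only through sgMiat-96. Ldb1, whose protein bridges LIM-homeobox factors in complexes, rose, with 99.0 ± 2.07 CPM in the control, 157 ± 16.7 under sgMiat-6 and 225 ± 5.32 under sgMiat-96.

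Nr2e1 encodes the orphan nuclear receptor Tlx, which keeps adult neural stem cells dividing (chromosome 10, 42561963 to 42583590). It was close to the floor everywhere, with 1 and 4 counts in the controls, 13 and 13 with sgMiat-6, and 4 and 7 with sgMiat-96. Its highest level was 0.664 CPM, and the highest control count equalled the lowest with sgMiat-96. The ratio of counts for both guides was 3.87 with a 95% counting interval of 1.52 to 12.6. With sgMiat-6 alone the ratio was 5.12 (1.94 to 17.1, adjusted p = 0.0176 in edgeR's test) and with sgMiat-96 alone 2.45 (0.786 to 9.004, adjusted p = 0.207). With each library left out in turn, the sgMiat-6 log2 fold change ranged from 1.66 to 3.51, and its call was not kept in every such fit. For both guides the fitted log2 fold change of 1.78 ± 0.71 (SE) had an adjusted p of 0.0413 and was not called by DESeq2 (adjusted p = 0.142). The call was also lost with the replicate block (adjusted p = 0.0619), with no filter on low counts (adjusted p = 0.0725), scaled by library totals (adjusted p = 0.0572), with the 4 Miat libraries as 1 group (adjusted p = 0.0724), and without any 1 library except sgMiat-96 replicate 1 (adjusted p from 0.0712 to 0.361).

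Of 7 tested NR2-class receptor genes, 2 rose and 2 fell, where Nr2f6 rose by 0.57 ± 0.09 (SE), Nr2c1 fell by 0.68 ± 0.14 and Nr2c2 fell by 0.49 ± 0.12 on the log2 scale. Of 7 tested RFX genes and partners, 0 rose and 2 fell. For both lists, 33.1% of all genes were higher and 33.4% lower with both guides. Rfx3, a regulator of ciliary genes, fell, with 47.8 ± 2.22 CPM in the control, 23.1 ± 5.36 under sgMiat-6 and 14.6 ± 0.291 under sgMiat-96, and Rfx7 fell by 0.33 ± 0.12 on the log2 scale. The median log2 fold change with both guides was 0.07 for the filament genes, 0.05 for the fucosyltransferases, -0.12 for the prominin list, -0.35 for the Musashi list, -0.51 for the LIM list, 0.04 for the NR2 genes and -0.17 for the RFX genes. The LIM median came from 5 tested genes, and Ldb1, by far the most abundant of them, rose by 0.92 ± 0.10 (SE) on the log2 scale.

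Per kilobase of transcript, the order in the control was Vim (816 ± 19.3 CPM per kb), Nes (184 ± 17.5), Cd24a (113 ± 4.02), Msi2 (29.5 ± 1.90), Msi1 (22.9 ± 0.176), Lhx2 (18.5 ± 0.281), Rfx4 (14.0 ± 0.604) and Nr2e1 (0.0393 ± 0.0331), each with its SD. Neighbours in that order did not overlap between libraries. Vim was 63rd of 13220 genes per length in the control, 23rd with sgMiat-6 and 59th with sgMiat-96. With the Miat guides Lhx2 moved ahead of both Musashi genes and Rfx4 dropped below Nr2e1. With sgMiat-96, the libraries of Nes and Cd24a overlapped, as did those of Msi1 (17.0 ± 4.29 CPM per kb) and Msi2 (14.4 ± 0.640).

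Counted by guide, 8 of the 8 tested members were called with sgMiat-6, 5 higher and 3 lower, where 53.0% of all genes were called (26.9% higher and 26.1% lower). With sgMiat-96, 6 were called, 3 higher and 3 lower, where 68.2% of all genes were called (34.0% higher and 34.2% lower). The sgMiat-6 count was 5 without sgGal4-4 replicate 2 or sgMiat-6 replicate 2. Both comparisons use the same control libraries. Between the guides, the 7 members not called included Msi1 (0.03 ± 0.16 on the log2 scale) and Lhx2 (0.01 ± 0.11), with Nes at -0.28 ± 0.16 (adjusted p = 0.172).

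Transcript length moved with these comparisons. Over all tested genes, the median log2 fold change with both guides ran from 0.56 in the shortest of 10 bins of transcript length with equal numbers of genes to -0.61 in the longest, and between the guides from 0.51 to -0.50. Nes (6126 bp) stood in a bin whose median was -0.36 with both guides, and Vim and Cd24a (1834 and 1816 bp) in one with a median of 0.26. Of the relatives named above, Fut9 (11990 bp), Rfx3 (9187 bp), Rfx7 (8000 bp) and Nr2c2 (7620 bp) stood in the longest bin. Their log2 fold changes with both guides were -0.96, -1.38, -0.33 and -0.49, beside that bin's median of -0.61. The part of length in their falls was not tested. With a loess trend over length removed, Nes was called, at 0.70 ± 0.13 (SE) with both guides (adjusted p = 0.000426), and at 0.73 ± 0.14 with sgMiat-96 (adjusted p = 0.000766). Vim kept 0.79 ± 0.06, Rfx4 -9.40 ± 0.27 and Lhx2 0.38 ± 0.08, while Cd24a went to 0.28 ± 0.06 (adjusted p = 0.00181), Msi2 to -0.30 ± 0.07 (adjusted p = 0.0028) and Msi1 (1551 bp) to -0.75 ± 0.14. Msi2, 6490 bp long, was no longer called between the guides (-0.13 ± 0.09, adjusted p = 0.273), and in its length bin the median gene differed by -0.50 between them. Whether the trend arose in the cells or in the libraries was not tested.

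**Figure D4:**
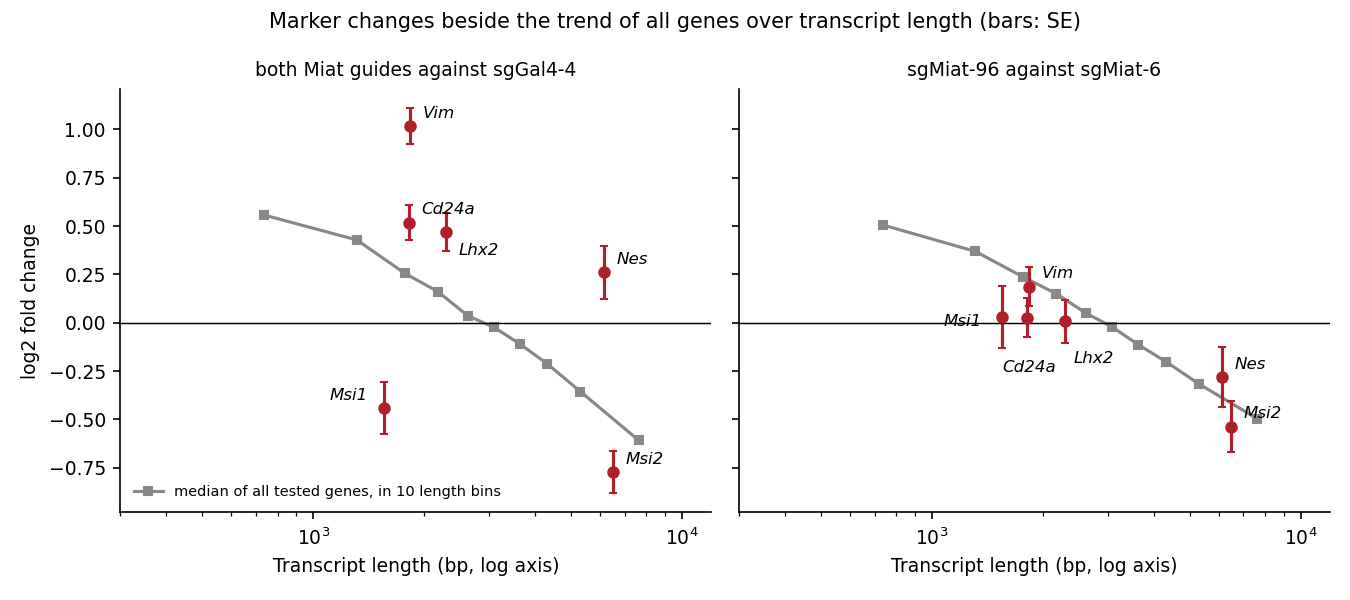
Log2 fold change of 6 markers (red, SE bars) against transcript length on a log axis, with the median of all tested genes in each of 10 length bins (grey), for both Miat guides against sgGal4-4 and for sgMiat-96 against sgMiat-6. In the first panel Nes and Vim lie above the trend and Msi1 below it, and in the second Msi2 lies near it.

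The wider list of 53 other neural stem and progenitor genes had 49 tested members, of which 12 rose and 25 fell with both guides, where 33.1% of all genes were higher and 33.4% lower, and its median log2 fold change was -0.30, against 0.00 over all genes. The list holds many long transcripts, up to 10506 bp. In the longer length bins the median over all genes ran from -0.21 (3962 to 4702 bp) to -0.61 (6192 bp and above). The part of transcript length in the list's falls was not tested. The largest falls were in Itga6, an integrin used to sort stem cells, with a log2 fold change of -4.98 ± 0.13 (SE), Id1, an inhibitor of differentiation, with -4.01 ± 0.12, and the fibroblast growth factor receptor genes Fgfr3 with -3.71 ± 0.09 and Fgfr2 with -2.63 ± 0.14. The largest rises were in genes that were low in the control and passed the filter on low counts only through the Miat libraries. Hes5, a Notch target, had 0 control counts and was at least 18.5-fold higher over the 4 Miat libraries, with the control set at 3 counts in all. The Wnt receptor gene Fzd9 went from 0.102 ± 0.0711 CPM to 12.1 ± 0.216 and 3.77 ± 0.795, Hopx from 0.358 ± 0.149 to 4.20 ± 0.121 and 5.68 ± 1.91, and Id4 from 0.539 ± 0.404 to 3.79 ± 0.598 and 3.53 ± 0.0658, for the control, sgMiat-6 and sgMiat-96 in that order. Sox2 was not called with both guides (0.19 ± 0.09, adjusted p = 0.0829) or with sgMiat-6 (0.07 ± 0.11, adjusted p = 0.582), and rose with sgMiat-96 (0.31 ± 0.11, adjusted p = 0.0192).

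Markers of other cell types changed in the same comparison, and their part in the marker results was not tested. The list of 9 granule neuron genes holds progenitor genes and genes of differentiating neurons (Neurod1, Cntn2, Tubb3, Rbfox3). Its summed level, mostly Zic1 and Zic2, was between 67.1 and 72.3 CPM in the controls, 149.7 and 169.5 with sgMiat-6, and 162.9 and 172.5 with sgMiat-96. All 5 tested members rose, where 33.1% of all genes were higher. Tubb3 passed the filter only through the Miat libraries, in which it is high. Atoh1, Barhl1, Cntn2 and Rbfox3 did not pass it, so the count leaves them out. Of 5 tested astrocyte genes 1 rose and 4 fell, where 33.4% of all genes were lower. Aqp4 fell from 2.81 ± 0.178 CPM to 0.150 ± 0.0681 and 0.431 ± 0.370. S100b rose from 18.7 ± 0.575 CPM to 54.1 ± 8.89 and 64.2 ± 4.56. Aqp4 and Gfap passed the filter only through the control, in which each is higher. Of 4 tested oligodendrocyte lineage genes 2 rose and 1 fell. Olig2, shared by oligodendrocyte precursors and stem-like cells, rose by 0.45 ± 0.09 (SE) on the log2 scale, with Sox10 at 0.102 CPM or less on average. Pdgfra of this list rose from 0.0511 ± 0.000601 CPM to 8.09 ± 0.831 and 4.62 ± 1.05. It passed the filter only through the Miat libraries. Cspg4 fell from 130 ± 14.4 CPM to 37.9 ± 4.15 and 37.9 ± 5.70. Fibroblast and pericyte genes summed to between 7.85 and 9.84 CPM in the controls and to at most 1.04 CPM with either Miat guide. Their level came mostly from Col1a1, at 8.67 ± 1.51 CPM in the control. The ependymal factor Foxj1 rose from 3.58 ± 1.05 CPM to 10.3 ± 0.210 and 10.7 ± 1.00, while Ccdc153 stayed below 0.1 CPM on average. Both tested endothelial genes, Cdh5 and Tek, fell, and Cdh5 passed the filter only through the control. Of the neuron list Map2 alone was tested and fell. Neuronal genes of the other lists went both ways with both guides. Neurod1, Tubb3 and Nefm rose, Prph, Elavl4 and Elavl2 fell, and Ina was not called (-0.09 ± 0.14 (SE) on the log2 scale). Prph was at 3.80 ± 1.58 CPM in the control, 0 with sgMiat-6 and 0.0289 ± 0.0408 with sgMiat-96. It passed the filter only through the control, and Nefm passed only through sgMiat-6, in which each is high. Elavl4 fell by 3.06 ± 0.33 (SE) on the log2 scale. Tubb3 rose by 5.26 ± 0.37 (SE) on the log2 scale, and Nefm had 1 count in the controls and 62 over the 4 Miat libraries (32.4 times the control level, 95% counting interval 5.61 to 1301). None of the 6 microglial genes passed the filter.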

How the data were processed

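RNA-seq of 6 libraries was used. The authors deposited 1 table per library with raw counts, FPKM and TPM for 33984 RefSeq transcript rows, per the file headers. STAR and GRCm38 (mm10) are named in the submitters' processing notes, and the counting tool is not given in the sources used here. The deposited FPKM values gave transcript lengths (count divided by FPKM) and marked 11223 rows of sgMiat-96 replicate 2 listed at 1 count with an FPKM of 0, which were set to 0, and the deposited TPM values were not used in a test. For each of 24063 symbols, of which 5261 had more than 1 row, the row with the highest total count was kept.

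Counts were tested with edgeR 4.0.16 (R 4.3.3): genes passing filterByExpr (a minimum count of 10, 0.529 CPM), TMM scaling, and the quasi-likelihood test in a fit of all 3 groups with 3 residual degrees of freedom and a prior count of 0.125. The 4 comparisons set the 2 Miat guides, averaged and singly, against sgGal4-4 and the Miat guides against each other. P-values were adjusted by Benjamini-Hochberg over 13220 genes, with a threshold of 0.05. Standard errors (SE) are the log2 fold change divided by the square root of the F statistic. The fit was tested on simulated data. Alternatives used DESeq2 1.42.0, other scalings and filters, a replicate block, other rows, a loess trend over transcript length (span 0.3), and each library left out.

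The members and gene lists were chosen with earlier results of these data known. All 10 members are named. Of the other stem cell genes, the 4 highest and 4 lowest log2 fold changes among those called are named, of each list of relatives up to 3 called genes with at least 5 CPM, and of each list of other cell types its first 2 genes. A gene that this rule names is not reported here. Sox2, Zic1, Zic2, Neurod1, Cntn2, Tubb3, Rbfox3, Nefm, Tek and Map2 were added after their values were seen. The same holds for Prph, Ina, Elavl4, S100b, Pdgfra, Cspg4, Lmx1b, Lhx6 and Cdhr1. Promoters come from RefSeq, with entries for 8 of the 10 members. Figures were drawn with matplotlib 3.10.9.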

Additional observations from a re-analysis of the deposited data

Results flagged for a closer look

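Msi2 was singled out because the effects of the 2 Miat guides against the same control libraries differed by the test of the difference itself. The log2 difference of sgMiat-96 minus sgMiat-6 was -0.54 (edgeR's quasi-likelihood test, adjusted p = 0.00777), with both sgMiat-96 libraries below both sgMiat-6 libraries, and 36.7% of all genes were called in that comparison. After removal of the length trend, the difference was -0.13 (adjusted p = 0.273), and the median gene of its length bin differed by -0.50. The call was also lost without sgMiat-6 replicate 1 (-0.33, adjusted p = 0.0695) and without sgMiat-96 replicate 1 (-0.49, adjusted p = 0.0883).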

How the results depend on the processing

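Of the alternative fits of single members, 457 kept direction and call, 31 lost the call, 4 gained it and 17 changed sign, 15 of those between the Miat guides. Scaled by library totals, the median of all genes was -0.126 with both guides, -0.202 with sgMiat-96 and -0.139 between the guides, against 0.003, 0.001 and 0.008 with TMM. It gave 3583 genes higher and 5196 lower with both guides, against 4379 and 4415 with TMM. Library totals also turned Nes with sgMiat-96 to -0.0794, and between the guides Msi1 to -0.12, Cd24a to -0.13 and Lhx2 to -0.14. With the length trend removed, the values between the guides were 0.063 for Nes, -0.0018 for Vim, -0.23 for Msi1, -0.17 for Cd24a and -0.0833 for Lhx2, and 0 members were called. The cause was not tested.

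With each library left out in turn, members called ranged from 6 to 8 with both guides, 5 to 8 with sgMiat-6, 5 to 6 with sgMiat-96 and 0 to 2 between the guides, and all genes called between the guides from 1124 to 5740. Nes with sgMiat-96 ranged from -0.16 to 0.36, and between the guides Msi1 ranged from -0.26 to 0.26, Rfx4 from -3.14 to 3.79, Cd24a from -0.0562 to 0.10 and Lhx2 from -0.0277 to 0.0383. The replicate numbers did not pair the samples (correlations of deviations 0.009, -0.091 and -0.213). With them as a block 6 members were called with both guides and 7 with sgMiat-6, and 8341 genes in all with both guides. Depth limits Prom1 and Fut4, which were not tested, and Nr2e1, which had at most 13 counts in a library.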
